A study of Mus musculus with 8 samples.

Results

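The collagen family was taken as every gene of the deposited count files whose symbol reads Col, a type number, the letter a and a chain number. This gave 44 of the 39179 genes. They were divided by the assembly their chains build into 11 fibrillar collagens, 8 basement membrane collagens and 25 others. Of the last group, 6 form beaded filaments, 9 are fibril-associated, 3 build networks, 4 are transmembrane, 1 forms anchoring fibrils, and types XXVI and XXVIII add 1 gene each.

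A collagen molecule is a triple helix of alpha chains, made in the endoplasmic reticulum and secreted as procollagen, and a type may need chains from more than 1 gene. Fibrillar collagens make up the fibres of connective tissue, and in pancreatic ductal adenocarcinoma (PDAC) they are known chiefly as products of the stromal fibroblasts that surround the tumour. Type IV collagen is the sheet-forming scaffold of the basement membrane, on which epithelial cells rest and which epithelial cells also make themselves. Type VI filaments, type VII anchoring fibrils and the fibril-associated types connect these structures to each other and to cells.

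RNA of 8 libraries from 4 lines of cultured mouse PDAC cells was sequenced, and each line was measured once with overexpressed WT-USP21 and once with overexpressed ED-USP21. USP21 is a deubiquitinating enzyme, and the labels do not spell out ED. All lines, under both constructs, carry ROSA_rtTA and p48-Cre, a doxycycline-dependent transactivator and a Cre recombinase driven from a pancreatic gene. By background strain, lines 1 and 2 are FVB/C57Bl6, and lines 3 and 4 are C57BL/6. Cells with neither construct are not analysed here. The sources used here do not give the doxycycline state of the cultures, the age of the animals or whether the lines came from separate tumours.

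Gene counts per library lay between 72828184 and 107551210. Usp21 itself was at 147, 944, 539 and 941 CPM (reads scaled by the adjusted library totals) in the WT-USP21 libraries of lines 1 to 4, against 1657, 3132, 1661 and 2720.5 CPM in the ED-USP21 libraries. Usp21 was thus lower in the WT-USP21 library of each line, so every WT-USP21 minus ED-USP21 difference also compares unequal amounts of Usp21 RNA, and these cannot be told apart. Line 1 stood apart from the other lines under both constructs: 3364 to 4045 of the 16192 genes tested differed at least 2-fold between a library of line 1 and the library of another line with the same construct, against 1284 to 1473 genes between line 3 and lines 2 or 4, and 703 to 717 between lines 2 and 4. The epithelial markers Krt8, Krt18, Krt19, Krt7 and Cdh1 were expressed in all 8 libraries, while Cldn4 stayed at or below 0.272 CPM and Epcam was at 5.34 CPM (WT-USP21) and 3.40 CPM (ED-USP21) in line 1 and at or below 0.314 CPM in the other lines. In bulk RNA, fewer cells of a type and less RNA per cell cannot be told apart.

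Basement membrane collagens made up most of the collagen RNA of these cells. They held 88.4% of the 1800846 collagen reads, against 6.43% for the fibrillar and 5.18% for the other collagens. A single gene, Col18a1, the core chain of a basement membrane proteoglycan whose end fragment is endostatin, held 39.3% of the reads. Together with Col4a1 and Col4a2, the chains of the common type IV molecule, it held 86.3%, and the first 6 genes (with Col5a1, Col6a1 and Col4a5) held 95%. Collagens in all took 0.334% (WT-USP21) and 0.336% (ED-USP21) of gene counts in line 1, and 0.198% to 0.232% in the 6 libraries of lines 2 to 4.

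At the other end, 3 members (Col9a1, Col13a1 and Col26a1) had 0 reads in all 8 libraries, and 9 members had at most 10 reads over all of them. A mean of at least 1 CPM was reached by 17 members and a mean of at least 10 CPM by 9. On the scale of mean CPM per kilobase of transcript, on which genes can be set side by side, the order of levels was Col18a1 (174), Col4a1 (126), Col4a2 (49.4), Col5a1 (13.2), Col6a1 (11.7), Col4a5 (7.63), Col8a1 (6.12), Col27a1 (4.77), Col7a1 (2.33) and Col6a2 (2.12). The chains of the main interstitial fibres were far lower, with 0.391 for Col1a1, 0.210 for Col1a2 and 0.105 for Col3a1. The filter on low counts left 28 members for comparisons between constructs (8 fibrillar, 7 basement membrane, 13 other) and 33 for the comparison of lines (11, 8 and 14).

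**Figure D1:**
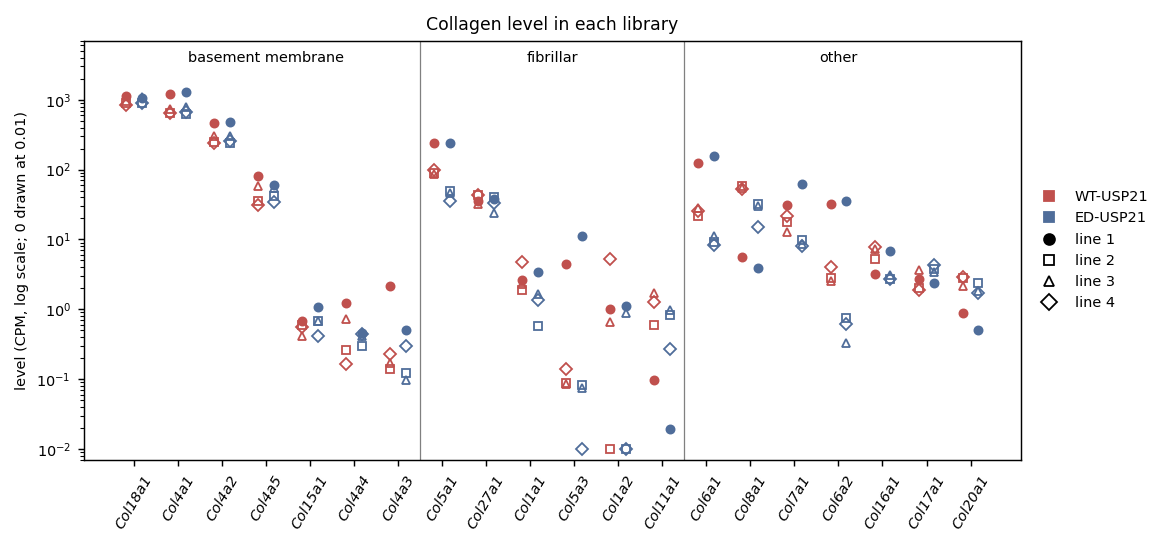
Level in CPM (log axis, 0 reads drawn at 0.01) of the 20 collagen genes followed in detail, by class; each point is 1 library, red for WT-USP21 and blue for ED-USP21, filled for line 1. Col18a1, Col4a1 and Col4a2 lie highest in every library; in Col5a1, Col6a1 and Col6a2 both filled points lie above all points of lines 2 to 4, and in Col8a1 both lie below.

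WT-USP21 and ED-USP21 were compared within each line to ask whether the construct moves any collagen class. Over all 4 lines, no collagen passed: 0 of 28 tested members were called by edgeR's quasi-likelihood test with the line as a block, against 0.0247% of all genes tested. At an unadjusted p under 0.05 there were 5, against 8.28% of all genes, and DESeq2 called 2 (Col5a1 and Col8a1, both higher with WT-USP21; 2.51% of all genes). The summed levels nevertheless differed by class and by line, and line 1 departed from the other 3.

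The summed level of the basement membrane class differed little between constructs in any line, and no member of it was called. It was 2897, 1833, 2074 and 1784 CPM in the WT-USP21 libraries of lines 1 to 4, against 2913, 1790.2, 2256 and 1854 CPM in the ED-USP21 libraries, which is 0.994, 1.02, 0.920 and 0.963 times. Line 1 had the highest sum under both constructs. For Col4a1 the log2 difference over the 4 lines was -0.04 (SE 0.06), for Col4a2 it was -0.02 (SE 0.05) and for Col18a1 -0.03 (SE 0.07), with adjusted p from edgeR of 0.911, 0.957 and 0.944. The median over the 7 tested members was -0.02, against -0.00439 over all genes.

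The fibrillar class had a higher summed level with WT-USP21 in lines 2 to 4 and not in line 1. The sums were 287, 136, 126 and 158 CPM in the WT-USP21 libraries of lines 1 to 4, against 294, 92.5, 75.6 and 71.7 CPM in the ED-USP21 libraries, or 0.978, 1.47, 1.66 and 2.20 times. The largest part of each sum was Col5a1, a chain of type V collagen, which starts and regulates the fibres built from type I. Most of the gap between the sums in lines 2 to 4 also lay in this 1 gene. The median log2 difference of the 8 tested members was -0.03, -0.24, 0.44 and 1.64 in lines 1 to 4. In these lines 4, 3, 5 and 7 of the 8 were higher with WT-USP21.

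The other collagens had the widest gap in summed level. By class median they had it in lines 1, 2 and 3. The fibrillar median was wider in line 4 (1.64 against 1.42) and over the 4 lines (0.85 against 0.50). Their sums were 202, 113, 115 and 120 CPM in the WT-USP21 libraries, against 272, 63.4, 61.5 and 43.6 CPM in the ED-USP21 libraries of lines 1 to 4, or 0.743, 1.78, 1.87 and 2.75 times. The median log2 difference of the 13 tested members was -0.11 in line 1 and 0.85, 0.85 and 1.42 in lines 2, 3 and 4. Line 4 had the widest gap in summed level in both classes. There 13 of the 28 members were at least 2-fold higher with WT-USP21 and 3 at least 2-fold lower, against 5.27% and 5.34% of all genes. The same counts were 4 and 4 in line 1 (6.06% and 3.3% of all genes), 4 and 2 in line 2 (3.31% and 4.92%), and 6 and 1 in line 3 (5.01% and 2.2%). These single differences have no replicate within a line.

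**Figure D2:**
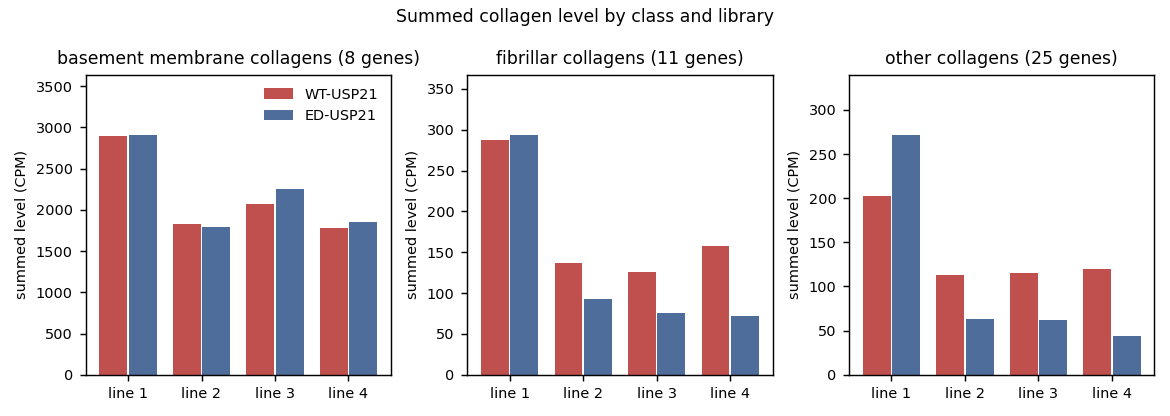
Summed level in CPM of each collagen class, by line, with WT-USP21 (red) left of ED-USP21 (blue); each bar is 1 library. Bars of the basement membrane class are nearly level within a line, while fibrillar and other collagens are higher with WT-USP21 in lines 2, 3 and 4 and not in line 1.

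With line 1 left out, a choice singled out here with its result known, 6 of the 28 members rose with WT-USP21 and 0 fell, against 2.51% of all genes higher and 2.06% lower (4.57% in either direction). They were Col6a1, Col6a2, Col5a1, Col8a1, Col16a1 and Col7a1. That is 1 fibrillar gene and 5 others, and none of the 7 tested basement membrane genes. All 6 calls needed line 2: with lines 3 and 4 alone, 0 of 28 members were called, against 0.0669% of all genes. The log2 differences of the 6 genes were then 0.997 to 2.83. With lines 2 and 4 alone 9 of 25 members were called, 8 higher and 1 (Col17a1) lower, against 10.4% of all genes, and with lines 2 and 3 the number was 6 of 28, against 1.84%.

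Of the 6 called genes, the type VI chains Col6a2 and Col6a1 had the largest log2 differences. Col6a1, the alpha-1 chain of the beaded filaments that surround many cells, was at 21.9, 28.3 and 25.8 CPM in the WT-USP21 libraries of lines 2 to 4, against 9.11, 11.2 and 8.44 CPM in the ED-USP21 libraries. The lowest WT-USP21 library lay above the highest ED-USP21 library, and the log2 difference was 1.41 (SE 0.09, adjusted p = 0.00271, edgeR). Its partner chain Col6a2 was at 2.83, 2.54 and 4.09 CPM with WT-USP21, against 0.743, 0.333 and 0.618 CPM with ED-USP21 in the same lines. Again the groups did not overlap, and the log2 difference was 2.52 (SE 0.27, adjusted p = 0.00995, edgeR). By reads, the WT-USP21 library had 3.81 times the ED-USP21 level in line 2 (95% counting interval 2.85 to 5.18, exact binomial), 7.62 times in line 3 (5.23 to 11.5) and 6.62 times in line 4 (4.88 to 9.14). These intervals cover counting error only. Col6a3, the third and longest chain, was at 1.15, 1.51 and 1.80 CPM with WT-USP21 and 1.16, 0.828 and 0.965 CPM with ED-USP21, and was not called (log2 0.59, SE 0.28, adjusted p = 0.342, edgeR).

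Col5a1 was at 89.6, 87.8 and 98.5 CPM in the WT-USP21 libraries of lines 2 to 4, against 49.5, 47.0 and 35.7 CPM in the ED-USP21 libraries. The groups did not overlap, and the log2 difference was 1.08 (SE 0.12, adjusted p = 0.0113, edgeR). Col8a1 encodes a short-chain collagen that forms networks beneath endothelium and in vessel walls. It was at 57.5, 53.7 and 52.4 CPM with WT-USP21, against 31.9, 29.8 and 15.2 CPM with ED-USP21, with a log2 difference of 1.16 (SE 0.19, adjusted p = 0.0261, edgeR). Line 4 had the lowest ED-USP21 value, and the 3 WT-USP21 values lay close together.

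Col16a1, a fibril-associated collagen, was at 5.23, 7.30 and 7.80 CPM with WT-USP21, against 2.71, 3.13 and 2.72 CPM with ED-USP21 in lines 2 to 4 (log2 1.24, SE 0.15, adjusted p = 0.0145, edgeR). Col7a1 builds the anchoring fibrils that fasten the basement membrane of stratified epithelium to the connective tissue below. It was at 18.0, 12.6 and 21.3 CPM with WT-USP21, against 9.92, 8.61 and 7.93 CPM with ED-USP21, and its log2 difference was 0.95 (SE 0.16, adjusted p = 0.0317, edgeR). Neither gene had overlapping groups. In all, the lowest WT-USP21 library lay above the highest ED-USP21 library of lines 2 to 4 for 8 of 28 members, the 6 called ones with Col1a1 and Col12a1, against 9.16% of all genes. Col12a1, a fibril-associated collagen, had 51, 79 and 46 reads with WT-USP21 against 11, 22 and 4 with ED-USP21. It (log2 2.20, adjusted p = 0.0540) and Col1a1 (log2 1.32, adjusted p = 0.0761) did not pass in edgeR, and the same holds for Col27a1, a fibrillar collagen of cartilage, whose groups overlapped (log2 0.31, adjusted p = 0.0986).

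**Figure D3:**
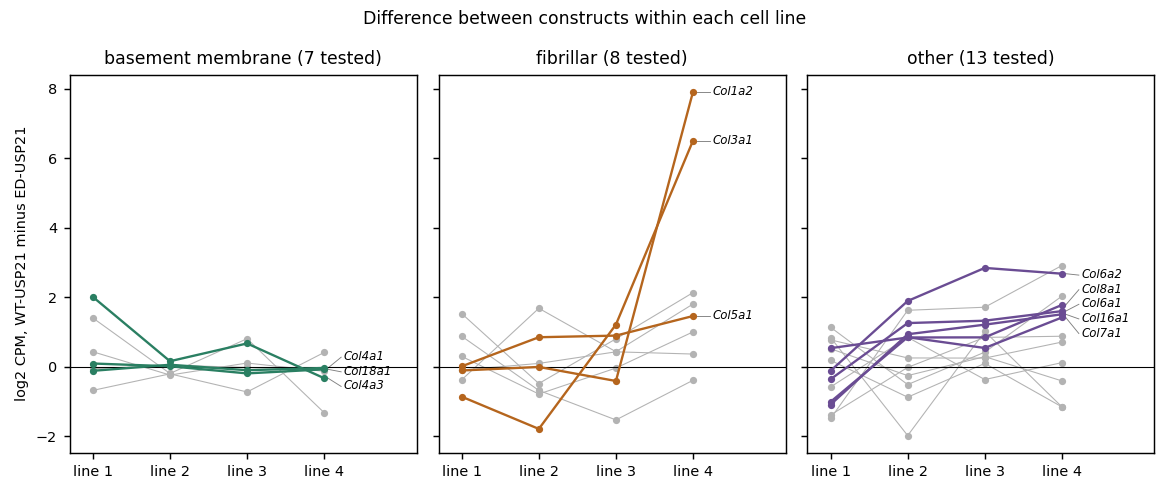
Difference of log2 CPM, WT-USP21 minus ED-USP21, in each line for the 28 tested members by class; grey lines are members without a label. In the right panel the 5 labelled genes lie above 0 in lines 2, 3 and 4, and 4 of them lie below 0 in line 1; the 2 high points of the middle panel are Col1a2 and Col3a1 in line 4, where the ED-USP21 library had 0 and 1 reads.

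Among the chains of interstitial fibres, line 4 stood apart. Col1a2, the second chain of type I collagen, had 459 reads in the WT-USP21 library of line 4 and 0 in its ED-USP21 library, which is at least 138-fold higher against a floor of 3 reads per library. It had 94 and 114 reads in line 1 (WT-USP21 and ED-USP21), 63 and 82 in line 3, and 0 in both libraries of line 2. Its partner chain Col1a1 was at 2.62, 1.88, 2.27 and 4.80 CPM in the WT-USP21 libraries of lines 1 to 4, against 3.39, 0.567, 1.67 and 1.35 CPM in the ED-USP21 libraries, and thus had reads in line 2 where Col1a2 had none. Col3a1, the chain of type III collagen, had 273 reads in the WT-USP21 library of line 4 and 1 in the ED-USP21 library, a ratio of 246 (95% counting interval 43.8 to 9763). In the remaining lines it had 27 and 57, 0 and 4, and 41 and 16 reads (WT-USP21 and ED-USP21 of lines 1, 2 and 3). Over the 4 lines neither passed in edgeR, with adjusted p of 0.910 for Col1a2 and 0.902 for Col3a1. Both were singled out after their values were seen. Fibroblast markers were low throughout: Thy1, Dcn, Lum and Pdpn had 0 reads in all 8 libraries. The summed level of the 8 listed fibroblast markers was 4.55, 5.59, 6.83 and 5.90 CPM in the WT-USP21 libraries and 3.70, 6.12, 6.05 and 4.40 CPM in the ED-USP21 libraries of lines 1 to 4, nearly all of it Pdgfra and Acta2, neither of which was called.

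Col17a1, a transmembrane collagen of the hemidesmosome that ties basal epithelial cells to the basement membrane, lay the other way in lines 2 and 4. It was at 2.75, 2.04, 3.68 and 1.92 CPM with WT-USP21 in lines 1 to 4, against 2.41, 3.75, 3.43 and 4.27 CPM with ED-USP21, and was not called over the 4 lines (log2 -0.43, SE 0.28, adjusted p = 0.767, edgeR) or over lines 2 to 4 (adjusted p = 0.282). Over lines 2 to 4 the median log2 difference was 0.95 for the fibrillar, -0.07 for the basement membrane and 0.70 for the other members tested, against 0.00 for all genes.

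For the 6 genes called higher over lines 2 to 4, the 250 bases before their start sites were read. The RefSeq promoter table of build GRCm38.p6 was used, which holds 35 of the 44 collagens. The windows of 4 of the 6 called genes, which lie clear of annotated exons, are shown 5′ to 3′ on the gene's strand and end at the base before the start site. Capitals mark matches, on either strand, to the SP1 GC box GGGCGG, the TCF/LEF core CTTTGA or the CCAAT box. They are the windows of Col5a1 at chr2:27886175-27886424 (plus strand), Col6a2 at chr10:76623631-76623880 (minus strand), Col7a1 at chr9:108953336-108953585 (plus strand) and Col8a1 at chr16:57754738-57754987 (minus strand). Col6a2 has 2 start sites in the table, and the window of the upstream one is shown. A gene was counted for a motif where any of its windows held it, while the share of promoters counts each distinct window once. The windows of called genes that are not shown lie partly under annotated exons. Exons cover 124 of the 250 bases in Col6a1, 113 in Col16a1 and 226 in the downstream window of Col6a2.
Col5a1: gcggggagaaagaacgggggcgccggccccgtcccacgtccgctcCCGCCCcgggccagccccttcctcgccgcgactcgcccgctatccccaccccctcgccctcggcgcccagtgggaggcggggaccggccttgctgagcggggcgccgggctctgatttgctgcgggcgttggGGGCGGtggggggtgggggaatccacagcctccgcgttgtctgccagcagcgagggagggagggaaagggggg
Col6a2: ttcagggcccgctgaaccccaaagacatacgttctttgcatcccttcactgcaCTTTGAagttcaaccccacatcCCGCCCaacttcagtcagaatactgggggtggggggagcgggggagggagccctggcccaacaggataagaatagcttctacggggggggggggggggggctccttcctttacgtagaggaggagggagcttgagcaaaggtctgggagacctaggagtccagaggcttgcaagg
Col7a1: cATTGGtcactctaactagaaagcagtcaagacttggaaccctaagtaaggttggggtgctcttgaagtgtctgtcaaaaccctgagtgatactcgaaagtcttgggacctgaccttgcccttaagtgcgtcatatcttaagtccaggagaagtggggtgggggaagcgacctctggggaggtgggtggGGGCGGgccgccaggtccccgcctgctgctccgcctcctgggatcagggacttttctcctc
Col8a1: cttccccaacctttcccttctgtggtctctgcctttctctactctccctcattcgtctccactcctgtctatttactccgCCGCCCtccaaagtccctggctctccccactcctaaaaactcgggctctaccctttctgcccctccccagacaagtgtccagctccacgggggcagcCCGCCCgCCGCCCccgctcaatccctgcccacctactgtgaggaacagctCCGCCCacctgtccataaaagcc
The Col5a1 window was 76.4% G and C with 28 CpG pairs and held 2 GC boxes, while the Col6a2 window was 59.2% G and C with 6 CpG pairs and held 1 GC box and 1 TCF/LEF core. The Col8a1 window held 4 GC boxes, the nearest 23 bases before the start, and the Col7a1 window held 1 GC box and, at its far end, a CCAAT box. The GC box was found in 5 of the 6 called genes (not in Col6a1), in 21 of the 35 collagens and in 33.0% of the 32536 promoters searched. The TCF/LEF core was found in 2 of the 6 (Col6a1 and Col6a2), in 9 of the 35 and in 13.9% of promoters. The CCAAT box was in 2 of the 6 (Col7a1 and Col16a1) and in 33.8% of promoters. The AP-1 motif TGANTCA was in 1 (Col6a1; 6.73% of promoters), the TEAD motif GGAATG in 1 (Col6a2, in its downstream window, which is not shown; 12.6%) and the TATA box TATAAA in 0 (12.3%). A match of these letters is a description of the sequence, and binding was not measured.

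In line 1 the construct difference of several of these genes ran the other way. Line 1 also had the lowest Usp21 level with WT-USP21, 147 CPM against 539 to 944 CPM in the other lines. The line and its Usp21 level cannot be told apart. Col6a1 was at 123 CPM with WT-USP21 and 157 CPM with ED-USP21, and Col6a2 at 32.5 CPM and 35.1 CPM. Col7a1 was at 31.4 CPM with WT-USP21 and 62.9 CPM with ED-USP21, and Col16a1 at 3.17 CPM and 6.74 CPM. In line 1 Col7a1 with WT-USP21 was thus at 0.499 times, and Col16a1 at 0.471 times, the ED-USP21 level. Col5a1 was at 242 CPM in the WT-USP21 library of line 1 and 239 CPM in its ED-USP21 library, and Col8a1 at 5.68 CPM and 3.90 CPM.

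The difference between the constructs in line 1 was therefore tested against that in lines 2 to 4, in an interaction fit in which line 1 is assumed to vary as the other lines do. It was lower in line 1 for 4 of 28 members and higher for 0, against 3.08% of all genes lower and 3.19% higher (6.27% in either direction). The 4 were Col6a1 (log2 -1.75, SE 0.16, adjusted p = 0.0131), Col6a2 (-2.61, SE 0.34, adjusted p = 0.0167), Col16a1 (-2.32, SE 0.31, adjusted p = 0.0176) and Col7a1 (-1.94, SE 0.31, adjusted p = 0.0224), all by edgeR. A further pair of genes of the lines 2 to 4 set did not pass, Col5a1 (-1.05, SE 0.24, adjusted p = 0.0616) and Col8a1 (-0.61, SE 0.40, adjusted p = 0.451). Without line 2, 0 of 29 members were called (0% of all genes). At an unadjusted p under 0.05 that fit had 9 of the 29, against 2847 of 16160 genes. Without line 3, 9 of 28 members were called (13.1% of all genes), and without line 4 there were 5 (4.32%). DESeq2 called 6, all lower in line 1, against 10% of all genes. By sign alone, 7 of 28 members were higher with WT-USP21 in lines 2, 3 and 4 and lower in line 1, against 10.6% of all genes. Another 3 were higher with WT-USP21 in all 4 lines (9.02% of all genes) and 0 lower in all 4 (7.73%).

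Line 1 was then set against lines 2 to 4 irrespective of construct, with the 2 libraries of a line summed. This leaves line 1 as a single sample, so each SE and p takes its spread from lines 2 to 4, and line 1 is assumed to vary as they do. Of 33 tested members, 8 were higher and 3 lower in line 1, against 18.6% and 13% of all genes, so the share of collagens called was close to that of genes at large (31.6% in either direction). The 8 include Col5a3, which passed the filter on low counts only through line 1; without it 7 of 32 were higher and 3 lower. Among members with a mean of at least 5 CPM, 7 of 10 were called, 6 of them higher, against 38.7% of genes with that mean. Both libraries of line 1 were at least 2-fold above every other library for 3 of 28 members (Col5a1, Col6a1 and Col6a2), against 3.19% of all genes.

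Of the 6 type IV chains, Col4a1, Col4a2 and Col4a3 were higher in line 1, and Col4a4, Col4a5 and Col4a6 were not called; nor was Col18a1. Col4a1 was at 1214 and 1311 CPM in line 1 (WT-USP21 and ED-USP21), against 646 to 745 CPM with WT-USP21 and 619 to 795 CPM with ED-USP21 in lines 2 to 4. Line 1 lay above every other library, with a log2 difference of 0.91 (SE 0.12, adjusted p = 0.00364, edgeR). Col4a2 was at 467 and 485 CPM in line 1, against 242 to 306 CPM in the other 6 libraries (log2 0.87, SE 0.14, adjusted p = 0.00611, edgeR). Col18a1 was at 1129.9 and 1055 CPM in line 1, against 854 to 1099.5 CPM in the others, so the lines overlapped (log2 0.26, SE 0.12, adjusted p = 0.145, edgeR). Col4a5, a chain of the type IV molecule of specialised basement membranes such as that of the kidney glomerulus, was at 82.0 and 60.5 CPM in line 1, against 31.5 to 58.6 CPM, and did not pass (log2 0.76, SE 0.28, adjusted p = 0.0823, edgeR). Its usual partner Col4a3 was at 2.13 and 0.510 CPM in line 1, against 0.0968 to 0.296 CPM in the others, and was higher in line 1 (log2 2.89, SE 0.45, adjusted p = 0.00606, edgeR), though not with ED-USP21 libraries alone (log2 1.59, adjusted p = 0.149). The third chain of that molecule, Col4a4, was at 1.24 and 0.453 CPM in line 1 and 0.163 to 0.734 CPM elsewhere, and was not called (adjusted p = 0.125, edgeR). Col15a1, a relative of Col18a1, was at 0.674 and 1.09 CPM in line 1 and 0.409 to 0.688 CPM elsewhere, and was not called either (log2 0.73, SE 0.32, adjusted p = 0.133, edgeR).

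Among fibrillar collagens, 2 type V chains were higher in line 1. Col5a1, at 242 and 239 CPM in line 1 against 35.7 to 98.5 CPM in the others, was higher by log2 1.82 (SE 0.08). Col5a3 was at 4.44 and 11.2 CPM in line 1 (409 and 1167 reads with WT-USP21 and ED-USP21), against 0 to 0.139 CPM in lines 2 to 4. Its log2 difference of 6.68 (SE 0.23, adjusted p = 5.88e-05, edgeR) is a description, since the filter kept the gene only for line 1. Col11a1, a chain of the type XI collagen of cartilage fibrils, was lower in line 1, with 0.0978 and 0.0193 CPM against 0.270 to 1.73 CPM (log2 -4.03, SE 0.64, adjusted p = 0.00662, edgeR); it had 9 and 2 reads in line 1. Col27a1 lay within the range of the other lines (log2 0.04, SE 0.22, adjusted p = 0.891, edgeR). The same was true of Col1a1, at 2.62 and 3.39 CPM in line 1 and 0.567 to 4.80 CPM in the others (log2 0.53, SE 0.45, adjusted p = 0.402, edgeR).

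Of the other collagens, the type VI chains Col6a1 and Col6a2 were higher in line 1 by log2 3.01 (SE 0.11, adjusted p = 7.17e-05, edgeR) and 4.16 (SE 0.24, adjusted p = 0.000239). Col6a1 averaged 140 CPM over the 2 libraries of line 1, against 17.4 ± 8.89 CPM in lines 2 to 4 (SD, n = 6 libraries), and Col6a2 averaged 33.8 CPM against 1.86 ± 1.52 CPM. Col7a1 was also higher (log2 1.88, SE 0.18, adjusted p = 0.00126, edgeR), but with WT-USP21 libraries alone it did not pass (log2 0.86, adjusted p = 0.0624). Col8a1 ran the other way, with 5.68 and 3.90 CPM in line 1 against 15.2 to 57.5 CPM in the others (log2 -3.08, SE 0.21, adjusted p = 0.000372, edgeR). Col20a1, a fibril-associated collagen, was lower too, with 0.891 and 0.510 CPM in line 1 against 1.74 to 2.87 CPM (log2 -1.72, SE 0.30, adjusted p = 0.00905, edgeR). For Col16a1 the comparison depended on the construct: it was lower in line 1 among WT-USP21 libraries (log2 -1.09, adjusted p = 0.0440) and higher among ED-USP21 libraries (log2 1.26, adjusted p = 0.00715). In the sums of both constructs the 2 cancelled (log2 0.07, SE 0.21, adjusted p = 0.805, edgeR).

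**Figure D4:**
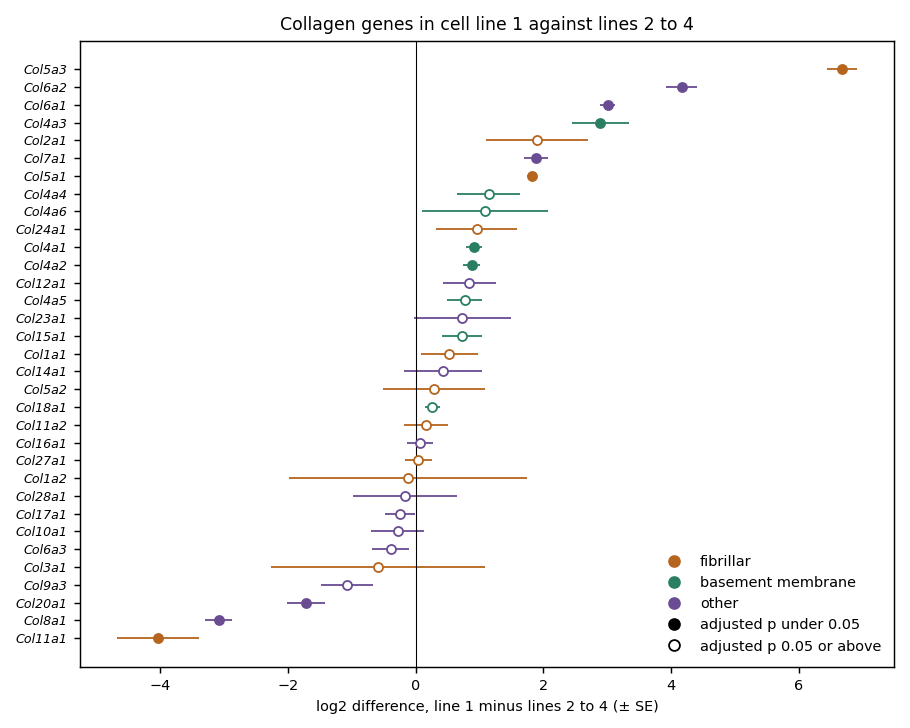
Log2 difference of line 1 minus lines 2 to 4 for the 33 tested collagens, with bars of 1 SE; filled points passed at an adjusted p under 0.05. Col5a3, Col6a2 and Col6a1 lie farthest to the right and Col11a1 and Col8a1 farthest to the left, while Col18a1, Col27a1 and Col16a1 lie near 0.

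Chains that assemble together did not all keep a fixed ratio. Col4a1 and Col4a2, which lie head to head on chromosome 8 with starts that overlap by 22 bases in build GRCm38.p6, kept a ratio of 2.54 ± 0.08 per transcript length (SD, n = 8 libraries), with a lowest value of 2.40 and a highest of 2.64. That ratio held although the level of both genes differed 1.83-fold and 1.79-fold between line 1 and the mean of lines 2 to 4. Col6a1 to Col6a2 ranged from 4.28 to 38.2 per length: it was 4.28, 8.78, 12.6 and 7.15 in the WT-USP21 libraries of lines 1 to 4, against 5.06, 13.9, 38.2 and 15.5 in the ED-USP21 libraries. The ratio was lower with WT-USP21 in each of the 4 lines. Col6a1 to Col6a3 ranged from 19.3 to 618, highest in the 2 libraries of line 1, and Col5a1 to Col5a2, the chain it joins in the common type V molecule, from 99.3 to 1017. Col5a2 never exceeded 51 reads. Col4a5 and Col4a6 also lie side by side, on chromosome X with starts 1343 bases apart, yet Col4a6 had at most 8 reads in any library where Col4a5 had 2667 to 7545.

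The genes that process collagen were read beside the chains. Of 19 listed genes for chain modification and folding, 18 were tested and 0 were called over the 4 lines. Over lines 2 to 4, 2 of 18 rose with WT-USP21 and 0 fell, against 2.51% and 2.06% of all genes. Serpinh1, the collagen-specific chaperone HSP47, was at 175, 155 and 189 CPM with WT-USP21 against 118, 124 and 116 CPM with ED-USP21 (log2 0.54, SE 0.08, adjusted p = 0.0233, edgeR). P3h3, of the prolyl 3-hydroxylase family and listed in the files as Leprel2, was at 8.68, 7.20 and 9.14 CPM against 5.59, 4.58 and 3.82 CPM (log2 0.85, SE 0.15, adjusted p = 0.0372, edgeR). P3h4 and P3h1, also among the smallest p over the 4 lines, were not called in that comparison (adjusted p of 0.479 and 0.587) or over lines 2 to 4. The interaction was lower in line 1 for 2 of the 18 and higher for 0, against 3.08% and 3.19% of all genes. The 2 were P4ha1 (log2 -0.67, SE 0.13, adjusted p = 0.0373, edgeR) and P4ha2 (log2 -0.86, SE 0.14, adjusted p = 0.0217), catalytic chains of prolyl 4-hydroxylase. P4ha1 was at 97.2 CPM with WT-USP21 and 144 CPM with ED-USP21 in line 1, and P4ha2 at 10.4 and 20.2 CPM. Against lines 2 to 4, line 1 had 7 of 19 higher and 2 lower, against 18.6% and 13% of all genes.

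Of 13 listed genes for propeptide cleavage and crosslinking, 9 were tested and 0 were called over the 4 lines. Over lines 2 to 4, 1 of the 9 was called higher with WT-USP21 and 0 lower, against 2.51% and 2.06% of all genes. Bmp1, which removes the C-terminal propeptide of fibrillar procollagens, rose with WT-USP21 over lines 2 to 4: 32.6, 28.9 and 33.3 CPM against 19.3, 20.3 and 18.3 CPM (log2 0.71, SE 0.08, adjusted p = 0.0113, edgeR). It was at 47.6 and 47.3 CPM in line 1 with WT-USP21 and ED-USP21. Loxl2, a lysyl oxidase (log2 -0.38), the Bmp1 enhancer Pcolce2 (-0.17) and the N-propeptidase Adamts14 (1.18) were not called over lines 2 to 4, with adjusted p of 0.202, 0.201 and 0.0829. In line 1 against lines 2 to 4, 5 of the 9 were higher and 0 lower, where 18.6% and 13% of all genes were.

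Of 10 listed collagen receptors, 7 were tested and 0 were called over the 4 lines. Over lines 2 to 4, 0 of the 7 were called higher with WT-USP21 and 1 lower, against 2.51% and 2.06% of all genes. In the interaction, 1 of the 7 was higher in line 1 and 0 lower, against 3.19% and 3.08% of all genes. Itga1, the alpha chain of an integrin that binds collagen IV and other collagens, fell with WT-USP21 over lines 2 to 4, to 31.2, 30.5 and 25.5 CPM, against 68.0, 52.1 and 70.7 CPM with ED-USP21 (log2 -1.12, SE 0.13, adjusted p = 0.0119, edgeR). In line 1 it was at 55.4 CPM with WT-USP21 and 30.4 CPM with ED-USP21, and the interaction was called (log2 1.98, SE 0.26, adjusted p = 0.0167, edgeR). Its partner chain Itgb1 (log2 0.24, adjusted p = 0.124) and the receptors Itga11 and Ddr2 (adjusted p of 0.499 and 0.413) were not called over lines 2 to 4. Line 1 had 1 receptor higher and 2 lower of 8 tested against lines 2 to 4, a share near the 31.6% of all genes.

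Marker levels that moved with the same comparisons are given here. Krt19, an epithelial keratin, fell with WT-USP21 over lines 2 to 4 (log2 -0.58, SE 0.09, adjusted p = 0.0261, edgeR). Of the 6 ductal epithelial markers tested there, 1 was called lower and 0 higher, against 2.06% and 2.51% of all genes. The rest were not called: Cdh1 (-0.49), Krt8 (-0.22), Krt7 (-0.11), Krt18 (0.05) and Epcam (0.95). The construct difference was higher in line 1 for 3 of the 6 (Krt19, Krt7 and Cdh1) and lower for 0, against 3.19% and 3.08% of all genes. Against lines 2 to 4, line 1, a single sample there, was higher in Krt8 (log2 0.74, SE 0.09), Krt19 (0.79, SE 0.09), Epcam (4.68, SE 0.29) and the endothelial Cdh5 (2.58, SE 0.38). It was lower in the macrophage marker Cd68 (-1.17, SE 0.18). The listed ductal markers Krt18 (log2 0.47), Krt7 (0.20), Cdh1 (0.21) and Cldn4 (1.81) were not called, nor was the immune marker Ptprc (-1.21). The summed endothelial markers were at 2.30 CPM in the WT-USP21 library of line 1 (2.23 CPM of it Cdh5), against 0.539 CPM in its ED-USP21 library and 0.301 to 0.466 CPM in lines 2 to 4. Cdh5 had 205 reads in line 1 with WT-USP21 and 40 with ED-USP21. Among the further endothelial markers, Pecam1 differed by log2 0.27 and Tek by log2 -2.35 in line 1 against lines 2 to 4. Tek had at most 11 reads in a library and Cldn5 at most 5, and 1 of the 5 listed markers had 0 reads in all libraries. The summed immune markers were at 6.02, 9.66, 12.9 and 9.92 CPM in the WT-USP21 libraries, against 4.99, 15.7, 15.8 and 12.8 CPM in the ED-USP21 libraries, nearly all of it Cd68. Their part in the collagen results was not tested.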

How the data were processed

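A further allele shared by all lines is not reported here. The authors deposited whole-number read counts per gene for each library, not normalised. The submitters' processing notes name build mm9 and, with no version or role, HTSeq, STAR, TopHat, Cufflinks and CASAVA. The strand setting is not stated in those sources; antisense and overlapping genes therefore cannot be separated. Reads in no gene were 11.4% to 20.6% of deposited counts and were left out of totals and tests.

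From the counts, edgeR 4.0.16 (R 4.3.3; TMM scaling, default filter on low counts, quasi-likelihood test) gave log2 differences and p-values, adjusted by Benjamini-Hochberg over all genes tested and called under 0.05. The SE is the absolute log2 difference over the square root of F. CPM used TMM-scaled totals, and log2 CPM a prior count of 2. Transcript length was that of the longest protein-coding transcript of the annotation used here, of a later build. DESeq2 1.42.0 was an alternative. The code was tested on simulated counts.

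The line was a block because the labels give each number to 1 cell line under both constructs; their deviations from the group means correlated across genes at 0.770, 0.503, 0.468 and 0.347 in lines 1 to 4, and those of lines 2 and 4 with different constructs at 0.430 and 0.364. With the line as a block, the p-values measure the spread of the construct difference between lines, whose independence the labels do not state. In the interaction this spread comes from lines 2 to 4, since line 1 has its own construct term. Line 1 against lines 2 to 4 used the 2 libraries of a line summed.

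The family, its classes, the gene lists and line 1 were chosen with earlier results of these data known. Members named were those called in any comparison, the 6 highest per class, and the 4 of smallest p per comparison; Col3a1, Col12a1, Col6a3, Col4a6 and Col5a2 were added after their values were seen. Of the pathway genes, those called over the 4 lines or in the interaction and up to 4 per list of smallest p were named.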

Additional observations from a re-analysis of the deposited data

Results flagged for a closer look

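In 12 of the 40 groups of 4 libraries examined (20 collagen genes under each construct), 1 library lay far from the other 3, and in each case it was the library of line 1. About 1 in 20 groups would be so by chance, but these genes were partly chosen because line 1 differs in them, and Col5a3 passed the filter on low counts only through line 1, so the count is a description. Over all genes tested, 1 library lay apart in 14.6% of groups, and it was the library of line 1 in 12.3%. Among the collagens, a line 1 library lay apart under both constructs for Col5a1 (242.4 CPM with WT-USP21 and 239.3 CPM with ED-USP21), Col5a3 (4.44 and 11.2 CPM), Col6a1 (122.6 and 156.7 CPM) and Col6a2 (32.5 and 35.1 CPM). With WT-USP21 alone it held for Col4a3, high at 2.13 CPM, and Col8a1, low at 5.68 CPM. With ED-USP21 alone it held for Col7a1, at 62.9 CPM, and Col16a1, at 6.74 CPM.

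The WT-USP21 minus ED-USP21 difference of line 1 differed from that of lines 2 to 4, by the interaction test of edgeR, for Col6a1 (log2 -1.75), Col6a2 (-2.61), Col7a1 (-1.94) and Col16a1 (-2.32).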

How the results depend on the processing

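For the comparison of constructs over 4 lines, edgeR called 0 members with RLE scaling, with the other filters and with no replicate block (with the last, 0 also at an unadjusted p under 0.05); DESeq2 called 2, and leaving out a line gave 0 to 6. Over lines 2 to 4, alternatives added after the data were seen called 9 members with DESeq2 (9.2% of all genes), 6 with RLE scaling (4.54%), 4 of 9 with a mean of at least 5 CPM (5.81% of such genes), and 5 with no replicate block (2.35%), where Col8a1 did not pass (adjusted p = 0.0645, edgeR); leaving out a line gave 0 to 9, and without line 2 it was 0. For the interaction, no filter gave 7 of 41 members, against 1666 of 26013 genes, and DESeq2 gave 6 of 28, against 10% of all genes. Leaving out a line gave 0 to 9 members, against 0% to 13.1% of all genes. For line 1 against lines 2 to 4, which rests on 1 line in a group, the number of members called changed with the line left out. The number of all genes called changed too, and both numbers were highest without line 3.

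The fibrillar median over the 4 lines, 0.85, ranged from 0.000936 to 0.949 with a line left out, lowest without line 4. In line 1 against lines 2 to 4, the fibrillar median of 0.29 was 1.52 with ED-USP21 libraries alone, 0.827 at 5 CPM or more (2 genes), 0.708 with the 8 libraries kept separate, and 0.164 to 1.04 with a line left out; the basement membrane median of 0.89 was 0.717 at 5 CPM or more and 0.756 to 0.989 with a line left out; the median of the others, -0.05, was 2.34 at 5 CPM or more. In the interaction, the basement membrane median of 0.18 was 0.348 with no filter and 0.0827 at 5 CPM or more, and that of the others, -0.85, was -1.83 at 5 CPM or more. Col16a1 changed direction in line 1 with WT-USP21 libraries alone (-1.09, against 0.07). Apart from changes in the genes or libraries included, the cause was not tested. Neither the line 1 comparison nor the interaction can be had without line 1. The 9 members with at most 10 reads over all libraries could not be compared at this depth.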
